A study of Mus musculus with 12 samples.

Results

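The comparison described here is forebrain ischemia against sham surgery in the hippocampal CA1 subfield of SUMO-KD mice, in which a transgene lowers small ubiquitin-like modifier (SUMO). It rests on 6 of the 12 arrays of the series, those of 3 SUMO-KD ischemia and 3 SUMO-KD sham samples, and the 6 arrays of wild-type mice, 3 ischemia and 3 sham, stand beside it. Ischemia lasted 10 minutes and was followed by 3 hours of reperfusion, and every sample pooled the CA1 tissue of 2 mouse brains. The SUMO-KD sham mice carry the transgene too, so the 6 arrays differ by surgery and not by genotype. The promoter that drives the transgene, the cells that express it, and the age, sex and strain of the mice are not given in the sources used here. Whether pools of 1 group shared a surgery day or litter is also not given, so p-values measure only the spread between pools of a group. That spread was estimated from all 12 arrays together, those of wild-type mice included. Total RNA was hybridised to Affymetrix mouse expression arrays, and each gene is represented by 1 probe set, which gave 12394 genes.

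SUMO proteins are joined to lysines of other proteins by a cascade of E1, E2 and E3 enzymes and are removed by SENP proteases. Many targets are nuclear, among them transcription factors and chromatin regulators, and global SUMO conjugation is known to rise steeply in brain after transient ischemia. CA1 pyramidal neurons die with a delay of days after such an insult, so 3 hours of reperfusion precedes that loss. The known early response of reperfused brain runs through immediate early transcription factors, which are induced without new protein synthesis, through heat shock chaperones, which bind unfolded proteins, and through a block of translation by phosphorylation of eIF2α, which favours the factor ATF4.

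Sumo3, which encodes a SUMO protein, was read by a probe set of a single gene. Its intensity was 1337, 1689 and 1655 on the SUMO-KD sham arrays and 1879, 1936 and 1909 on the SUMO-KD ischemia arrays. It ranged from 2247 to 2467 on the wild-type sham arrays and from 3245 to 3518 on the wild-type ischemia arrays. All 6 SUMO-KD arrays thus lay below all 6 wild-type arrays. With ischemia the 3 SUMO-KD ischemia arrays were above the 3 sham arrays, by 0.29 on the log2 scale, and this did not pass limma's test (SE 0.10, adjusted p = 0.081). It passed with the stricter filter on dim genes (limma adjusted p = 0.0441) and with trend and robust eBayes (limma adjusted p = 0.04). Of the 11 measured genes of SUMO conjugation and deconjugation, 0 were called in SUMO-KD.

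Array quality differed little by group except in control probe sets for 18S ribosomal RNA. Median intensity was 141 to 158 on the 6 SUMO-KD arrays, and the share of dim probe sets, those under 32, was 25.8% to 28.6%. Replicates correlated at 0.9904 to 0.9918 among sham arrays and at 0.9877 to 0.9919 among ischemia arrays (Pearson r across genes, which are not independent replicates). The 5′ 18S control had 4194 to 5153 on the sham arrays, 1373 on ischemia replicate 1, 1402 on ischemia replicate 3, and 4127 on ischemia replicate 2, just below the sham arrays. The 3′ 18S control had 5087 to 5814 on sham arrays and 2829, 6316 and 3552 on ischemia replicates 1, 2 and 3. Replicate 2 was thus the highest ischemia array in both and lay above the sham arrays in the 3′ control. On the wild-type arrays the 5′ 18S control had 4297 to 6528 in sham and 1275 to 1660 after ischemia. The part of these 18S differences in the results was not tested. Counts without ischemia replicate 2 are given where it moved a list count above 2 by more than 1.5 times. They are also given for the heat shock, cytokine and NF-kB lists. The range of list counts of 2 or 1 is given for all of them together further on. Of 7 CA1 pyramidal markers 3 were measured (Wfs1, Pou3f1 and Man1a), with a summed intensity of 2806 to 3850 on sham and 3063 to 3536 on ischemia arrays and 0 called. Markers of dentate granule neurons and of the choroid plexus were present as well, so the dissected tissue was not CA1 pyramidal cells alone. In such tissue, fewer cells of a type and less RNA per cell cannot be told apart.

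Ischemia raised a set of genes by large factors in SUMO-KD CA1, while falls were fewer and smaller. Calls took an adjusted p below 0.05 in limma's test over all genes, and log2 differences are of log2(intensity + 32), which understates the change of dim genes. In all, 1327 of 12394 genes were called (10.7%), 754 higher (6.08%) and 573 lower (4.62%), and 2991 had an unadjusted p under 0.05. Among the calls, 176 rises and 22 falls were at least 2-fold, and 32 rises and 0 falls were at least 4-fold. Of the called genes, 749 of the rises had all 3 ischemia arrays above all 3 sham arrays, as did 13.9% of all genes, and 572 of the falls had them all below, as did 15.9% of all genes. Without ischemia replicate 2 the counts were 493 higher and 269 lower, without ischemia replicate 3 they were 475 and 311, and the falls became 326, 332 and 329 without sham replicate 1, 2 and 3. The 30 genes with the largest changes, 15 in each direction, kept their calls in every one of the 12 omissions of an array.

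The 15 largest rises were of the transcription factor genes Fos, Atf3, Egr2, Maff, Ier2 and Nfil3, the heat shock genes Hspa1a, Hspa1b, Hspb1 and Dnajb1, and Ccn1, Arc, Socs3, Tnfrsf12a and Cxcl1. AP-1 factors are dimers of Fos, Jun, Maf and ATF proteins. Of 13 measured members, 10 rose and 0 fell, with a median log2 difference of 1.31, while the median over all genes was −0.02. Fos, the classic immediate early gene, had an intensity of 399, 448 and 271 on the sham arrays and of 10656, 6067 and 9142 on the ischemia arrays. The groups did not overlap, and ischemia replicate 2 was the lowest of its group; the rise was 4.41 (SE 0.24, limma adjusted p = 1.23e-06). Atf3, a stress-induced member of the ATF family, went from 46.0, 45.4 and 40.7 to 1681, 1248 and 1559, a rise of 4.32 (SE 0.18, limma adjusted p = 1.91e-07). Its sham values were near the floor of the arrays and close together. Maff, a small Maf protein without an activation domain, rose by 2.97, Jun by 2.05, Fosb by 2.01, Junb by 1.80, Fosl1 by 1.31, Jund by 1.27, Jdp2 by 1.13 and Mafk by 1.04. Fosb varied most of these among replicates, with 750, 178 and 408 after ischemia against 61.5 to 78.7 in sham. The 3 members that did not pass were Fosl2 (0.48, limma adjusted p = 0.297), Batf3 (0.57) and Mafg (0.25).

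Of 16 further immediate early factors, 12 rose and 0 fell (median 1.33). Egr2, a zinc finger factor, had 30.1, 30.1 and 16.7 on sham arrays and 757, 521 and 803 on ischemia arrays, which is a rise of 3.64 (SE 0.24, limma adjusted p = 5.63e-06). Ier2 rose by 2.90 and the orphan nuclear receptor gene Nr4a1 by 1.90, from 511 to 587 in sham to 2638, 1586 and 2256. Egr1 was already bright in sham, at 3748, 3753 and 2753, and reached 11273, 10876 and 12231, a rise of 1.75. Egr3 and Nr4a3 showed no such difference: Egr3 had 55.5 to 70.1 in sham and 50.6 to 81.3 after ischemia, and Nr4a3 stayed below an intensity of 20 on all 6 arrays. Among 11 Kruppel-like factors 6 rose and 0 fell (median 0.67), led by Klf4 (2.35) and Klf6 (1.97), zinc finger factors of stress and growth control. Klf4 had 154, 179 and 225 in sham and 1810, 736 and 923 after ischemia, so replicate 1 stood above the other ischemia arrays. Klf10 rose by 1.23 and Klf5 by 1.01, but without probe sets marked as shared between genes Klf5 had 0.30 and was not called (limma adjusted p = 0.137).

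**Figure D1:**
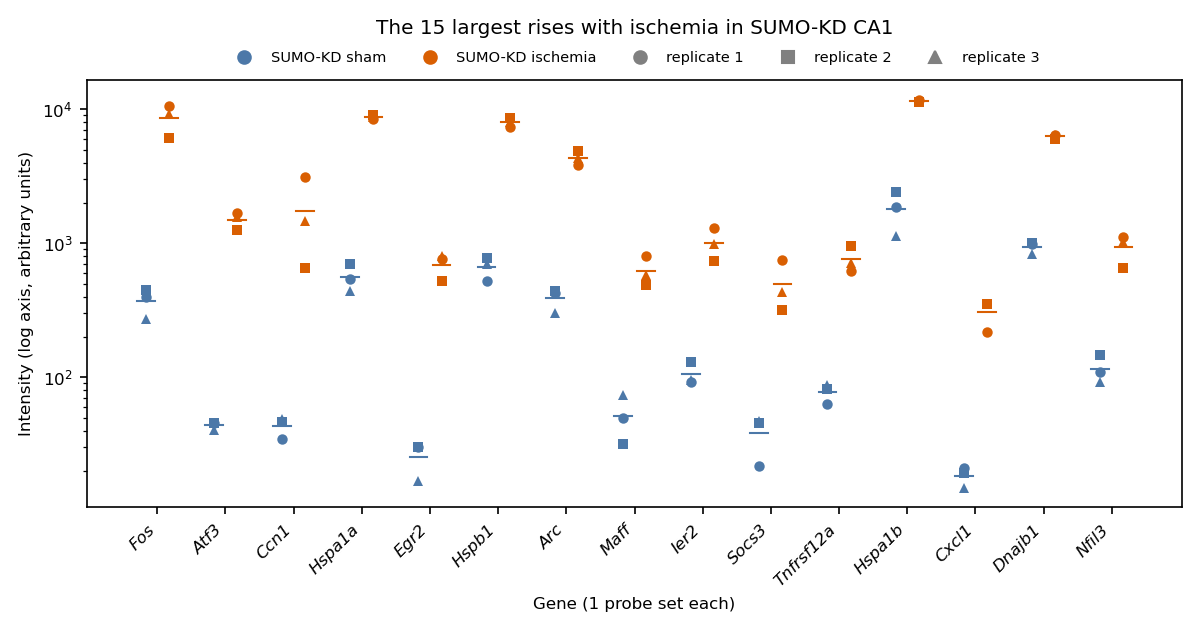
Intensity (log axis) of the 15 genes with the largest rises on each of the 6 SUMO-KD arrays, with sham in blue, ischemia in orange, a marker shape per replicate and a bar at each group mean. The genes were chosen as rises whose groups do not overlap; the heat shock genes Hspa1a, Hspb1 and Dnajb1 are tight across the 3 ischemia arrays, while Ccn1 runs from 652 to 3099.

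Promoter sequences of 5 of these responders are shown because they carry, close to the start site, letters of sites that the signalling of reperfused neurons is known to use. They are the 160 bases up to the base before the RefSeq start, on the gene's strand, in build GRCm38.p6. Capitals mark the TGACG core of the cAMP response element (or its reverse complement CGTCA) and, in Fos, also a TATA box (TATAAA); in Ppp1r15a they mark the full element TGACGTCA and in Cxcl1 a match to the NF-kB consensus. The stretches lie at chr12:85473730-85473889 (plus strand) for Fos, chr15:101266686-101266845 (plus) for Nr4a1, chr1:191183334-191183493 (minus) for Atf3, chr7:45526269-45526428 (minus) for Ppp1r15a and chr5:90891085-90891244 (plus) for Cxcl1.
Fos: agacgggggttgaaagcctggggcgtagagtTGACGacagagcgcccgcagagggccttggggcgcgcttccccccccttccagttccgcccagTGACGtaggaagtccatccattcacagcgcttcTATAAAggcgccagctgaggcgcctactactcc
Nr4a1: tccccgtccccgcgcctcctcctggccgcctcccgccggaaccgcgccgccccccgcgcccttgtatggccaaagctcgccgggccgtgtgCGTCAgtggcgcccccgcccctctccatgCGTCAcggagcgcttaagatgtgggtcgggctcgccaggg
Atf3: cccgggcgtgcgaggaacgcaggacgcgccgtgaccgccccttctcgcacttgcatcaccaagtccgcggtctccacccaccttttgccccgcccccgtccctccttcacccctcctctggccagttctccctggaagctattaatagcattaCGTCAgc
Ppp1r15a: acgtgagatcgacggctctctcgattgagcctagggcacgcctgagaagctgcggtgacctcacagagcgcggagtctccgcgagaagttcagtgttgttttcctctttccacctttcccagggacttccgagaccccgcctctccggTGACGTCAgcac
Cxcl1: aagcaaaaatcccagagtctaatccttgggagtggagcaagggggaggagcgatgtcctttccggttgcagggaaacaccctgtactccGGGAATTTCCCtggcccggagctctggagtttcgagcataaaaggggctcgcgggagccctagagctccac
In Fos the cores begin 129 and 66 bases before the start and the TATA box 33 bases before it, and in Nr4a1 the cores begin 69 and 40 bases before the start. Both strands were searched in windows from 250 bases before to 50 bases after each start, for 9888 of the 12394 genes, and a gene with several windows counted once. The full element was found in 11 of 136 rises of at least 2-fold with a window (8.09%), among them Dusp1, Maff, Btg2 and Ppp1r15a, and in 2.99% of all genes. The TGACG core, which every full element contains, was found in 41.2% of these rises, 43.9% of the called rises below 2-fold, 33.5% of the called falls and 31.4% of all genes. The AP-1 site TGANTCA was found in 10.3% of the rises of at least 2-fold and 7.69% of all genes, the serum response (CArG) box in 4.41% and 1.75%, the NF-kB consensus in 14.0% and 6.18%, and TATAAA in 20.6% and 11.9%. The heat shock element was found in 3 of 13 heat shock genes that rose (Hspd1, Hspe1 and Hsph1), in 1 of 8 that were not called (Chordc1) and in 0.576% of all genes. These shares describe letters in the windows and were not tested.

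Of 20 activity-regulated effector genes 13 rose and 1 fell (median 0.92). Ccn1, a secreted matricellular protein, had 34.6, 46.2 and 48.9 in sham and 3099, 652 and 1478 after ischemia, a rise of 4.30 with the largest standard error among the 15 largest rises (SE 0.46, limma adjusted p = 0.000151). Arc, which controls AMPA receptor endocytosis at synapses, had 424, 439 and 302 in sham and 3831, 4898 and 4363 after ischemia, a rise of 3.40 (SE 0.17, limma adjusted p = 9.54e-07), with ischemia replicate 2 the highest. The small GTPase gene Gem rose by 2.21 and Ptgs2, the inducible cyclooxygenase, by 1.77, from 426 to 739 in sham to 1630, 3091 and 1629. Pcsk1, which encodes a prohormone convertase, was the member that fell, by 0.68 (limma adjusted p = 0.0192), and its call was lost without ischemia replicates 2 or 3 or sham replicates 1 or 3. Genes of the phosphatases and Sprouty proteins that shut off MAP kinase signalling rose in 10 of 15 cases, with 0 falls (median 0.88). The 15 include Dusp9, matched through a synonym in place of Dusp4, which was not measured. Dusp1 had 573, 433 and 591 in sham and 4213, 1440 and 2493 after ischemia (2.16), Dusp16 rose by 1.70, the ERK phosphatase gene Dusp6 by 1.54 and Spry2 by 1.27.

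Heat shock genes were the other large group. Of 24 chaperones and cochaperones 15 rose and 0 fell (median 0.55), and 10 rose without ischemia replicate 2. Hspa1a, the inducible HSP70, had 538, 707 and 442 in sham and 8495, 9101 and 8807 after ischemia, a rise of 3.92 (SE 0.17, limma adjusted p = 1.91e-07). Its 3 ischemia arrays agreed within a far narrower range than those of Fos or Ccn1. The small heat shock protein gene Hspb1 went from 523, 782 and 707 to 7313, 8681 and 7969 (3.53), and Dnajb1, an HSP40 that hands substrates to HSP70, from 986, 1012 and 835 to 6456, 6038 and 6407 (2.70). Hspa1b rose by 2.73, but Hspa1a and Hspa1b are near-identical copies whose transcripts a probe set may not separate. Bag3, an HSP70 nucleotide exchange factor, rose by 1.70 and Hsph1 by 1.33, and Hsp90aa1, bright in sham at 9405 to 10240, by 0.32. The members not called included Hspa4 (−0.18), Hspa2 (−0.01), Chordc1 (−0.23) and Stip1 (0.31).

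Chaperones of the endoplasmic reticulum did not move as a group, with 2 of 21 higher and 2 lower and a median of 0.07. Hspa5 (BiP), the main ER chaperone, had 5013, 4942 and 4972 in sham and 7557, 8466 and 8768 after ischemia and rose by 0.73 (limma adjusted p = 0.00468). Dnajb11, its cochaperone, rose by 0.58, while the protein disulfide isomerase gene Pdia4 fell by 0.58 and the translocon subunit gene Sec61b by 0.58. Hsp90b1 (−0.09), Calr (0.07) and Pdia6 (0.22) were not called. The Dnajb11 call was lost in 5 of the 12 omissions (limma adjusted p = 0.0518 to 0.0951) and the Pdia4 call in 3 (limma adjusted p = 0.0541 to 0.0775), each time without a SUMO-KD array. With the mean of its probe sets Pdia4 was at −0.35 and not called (limma adjusted p = 0.124).

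Targets of the integrated stress response, the programme run by ATF4 when eIF2α is phosphorylated, rose in 9 of 21 cases, with 0 falls and a median of 0.51. Chac1, a glutathione-degrading enzyme, had 173, 114 and 164 in sham and 695, 1558 and 1222 after ischemia (2.65, SE 0.25, limma adjusted p = 5.77e-05). Ppp1r15a (GADD34), the phosphatase subunit that reverses eIF2α phosphorylation, had 179 to 212 in sham and 1057, 880 and 878 after ischemia (2.06). Sesn2 went from 99.1 to 115 in sham to 194, 542 and 367 (1.44) and Mthfd2, a mitochondrial folate enzyme, from 123 to 185 in sham to 260, 573 and 427 (1.29). In Chac1, Sesn2 and Mthfd2 ischemia replicate 1 was the lowest and replicate 2 the highest. Atf4 itself rose by 0.94 and Ddit3 (CHOP) by 1.11. The amino acid enzymes and transporters Asns (0.28), Psat1 (0.06), Phgdh (−0.15) and Slc7a11 (−0.03) were not called.

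**Figure D2:**
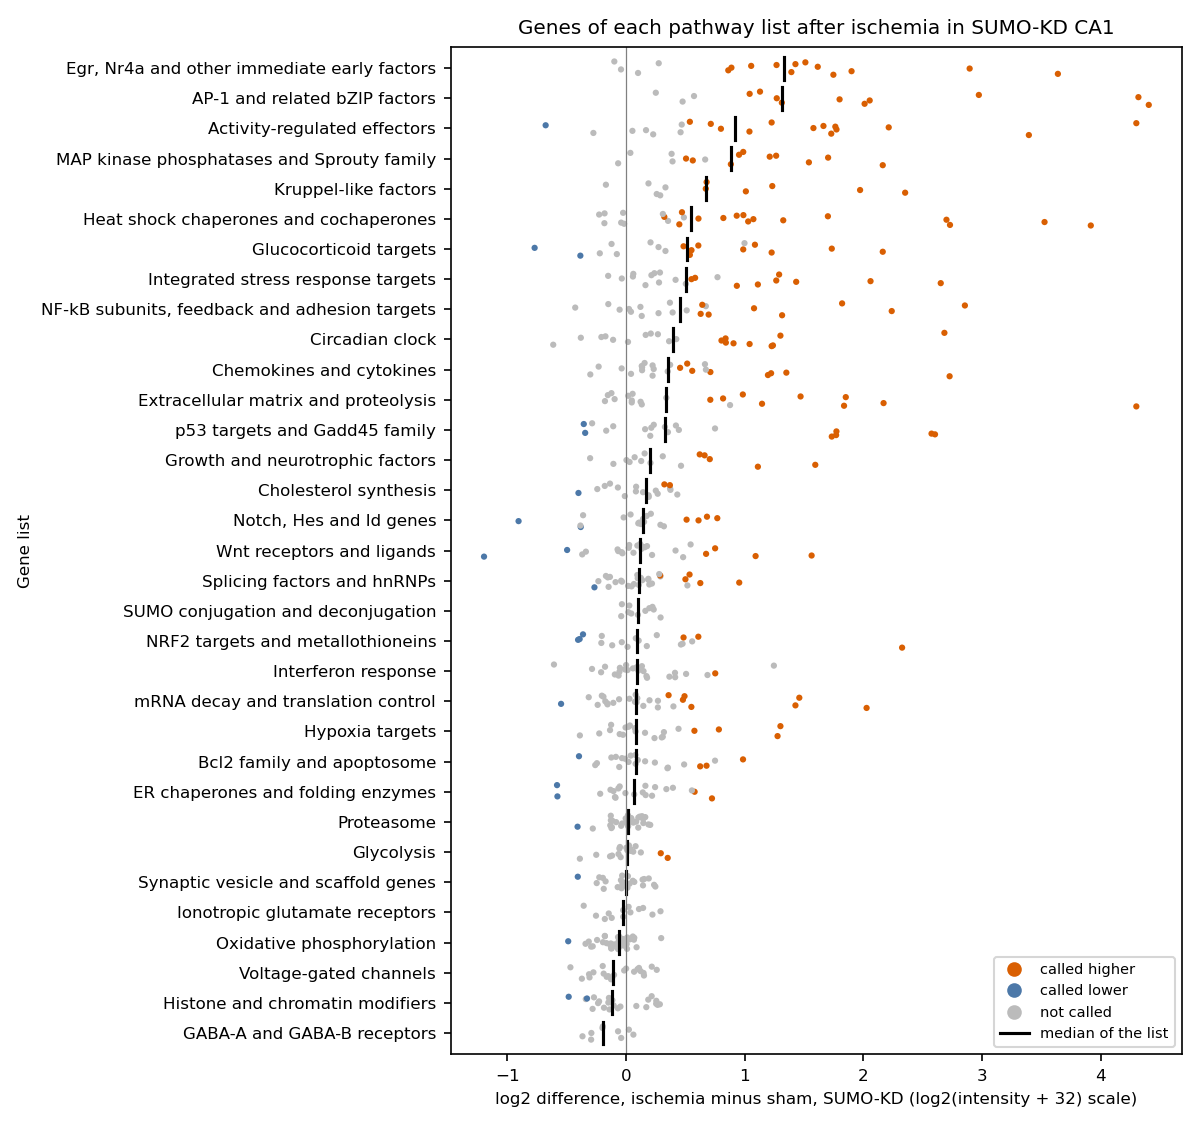
Log2 difference (ischemia minus sham, SUMO-KD, log2(intensity + 32) scale) of each measured gene in the 33 pathway lists, orange where called higher, blue where called lower and grey where not called, with a bar at each list's median. The immediate early, activity-regulated, phosphatase and heat shock lists lie to the right, with medians up to 1.33, while receptor, channel, synaptic and proteasome genes lie near 0.

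Of 23 chemokine and cytokine genes 8 rose and 0 fell (median 0.35), and 6 rose without ischemia replicate 2; the 8 were Cxcl1, Cxcl10, Ccl2, Ccl3, Ccl4, Ccl7, Il6 and Lif. Cxcl1, which attracts neutrophils, had 21.0, 19.4 and 14.9 in sham and 219, 353 and 352 after ischemia, a rise of 2.73 (SE 0.16, limma adjusted p = 1.95e-06). Ccl3 rose by 1.35, Ccl2 by 1.22 and Cxcl10 by 1.20, and these 3 reached at most 115 after ischemia. Il1b (−0.04) and Tnf (0.23) were not called. Of 20 genes of NF-kB signalling and its targets 8 rose and 0 fell (median 0.45), and 6 rose without ischemia replicate 2. Socs3, an inhibitor of JAK-STAT signalling, had 21.7, 45.8 and 47.4 in sham and 749, 318 and 430 after ischemia (2.86), Nfkbiz, a nuclear IκB protein, rose by 2.24, the LPS coreceptor gene Cd14 by 1.82, and Rel by 1.32. Nfkbia, a feedback inhibitor, was not called (0.28). The neutrophil gene S100a9 had 11.3 to 31.3 in sham and 81.9, 398 and 71.8 after ischemia and rose by 1.70 (limma adjusted p = 0.0291), a call lost without any 1 of the 3 sham arrays (limma adjusted p = 0.0546 to 0.0998). S100a8 (135, 705 and 158 after ischemia) and Ngp (37.3, 242 and 44.9), also neutrophil genes, were likewise high on ischemia replicate 2 and were not called. The 10 measured blood cell markers summed to 276 to 393 on sham arrays and to 502, 1737 and 501 on the ischemia arrays, with Hba-a1, Slc4a1 and Cd79a below 32 on all 6; their part in the chemokine and cytokine result was not tested.

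Interferon response genes did not follow, with 1 of 25 higher, 0 lower and a median of 0.09. The call was of Gbp2, a guanylate-binding protein, with 45.4, 80.8 and 65.7 in sham and 100, 169 and 121 after ischemia (0.75, limma adjusted p = 0.0254), and it was lost in 4 omissions (limma adjusted p = 0.0612 to 0.105) and with the mean of its probe sets (0.50, limma adjusted p = 0.15). Rsad2 (viperin) had 90.0, 160 and 212 in sham and 589, 362 and 279 after ischemia (1.25, limma adjusted p = 0.163), where the spread within groups was wide.

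In the list of p53 targets and the Gadd45 family 5 of 19 rose and 2 fell (median 0.33). All 3 Gadd45 genes, stress sensors that bind p38 and JNK pathway kinases and the replication clamp, rose: Gadd45b by 2.60, Gadd45g by 2.58 and Gadd45a by 1.77. Phlda1 rose by 1.77 and the cell cycle inhibitor gene Cdkn1a by 1.74. The p53 targets Mdm2 (0.21), Bbc3 (0.16) and Zmat3 (−0.11) were not called, while Ccng1 (−0.34) and Rrm2b (−0.35) fell; of the 2 falls 0 were left on omitting ischemia replicate 2, sham replicate 2 or sham replicate 3, and 1 on omitting ischemia replicate 3. Of 22 genes of the Bcl2 family and the apoptosome 3 rose and 1 fell (median 0.08). Apaf1, the apoptosome scaffold, rose by 0.99, and the antiapoptotic gene Mcl1 by 0.68. The proapoptotic gene Bcl2l11 (Bim) rose by 0.63 and the caspase inhibitor gene Xiap fell by 0.40. The Bcl2l11 call was lost in 6 omissions (limma adjusted p = 0.0509 to 0.141) and the Xiap call in 4 (limma adjusted p = 0.0538 to 0.0699); with the mean of its probe sets Xiap was at 0.0115.

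Clock genes rose in 9 of 20 cases, with 0 falls (median 0.39). Nfil3, a repressor in the clock's output arm, had 109, 146 and 92.6 in sham and 1121, 658 and 1016 after ischemia (2.68), Bhlhe40 rose by 1.30, Per2 by 1.24 and Per1 by 1.23. Dbp (−0.38) and Per3 (−0.61, limma adjusted p = 0.0543) lay below sham and were not called. Of 18 glucocorticoid targets 9 rose and 2 fell (median 0.51). Besides Dusp1, Cdkn1a and Per1, the pyruvate dehydrogenase kinase gene Pdk4 rose by 1.09, whereas Fkbp5 fell by 0.38 and Sult1a1 by 0.77 and Tsc22d3 was not called (−0.08). Without ischemia replicate 2 the 9 rises became 5, the falls became 0 and the Pdk4 call was lost (limma adjusted p = 0.0505); omitting sham replicate 3 also left 0 falls, and omitting ischemia replicate 1 or 3 or sham replicate 1 left 1.

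Of 18 NRF2 targets and metallothioneins 3 rose and 3 fell (median 0.10). Hmox1, the inducible heme oxygenase, had 62.3 to 95 in sham and 424, 651 and 506 after ischemia (2.33). The metallothionein genes Mt2 and Mt1 rose by 0.61 and 0.49 from bright sham values, the glutathione transferase gene Gstm1 fell by 0.40, and Nqo1 (0.01) and Gclc (−0.12) were not called. The 3 falls became 0 in 7 of the 12 omissions, that of ischemia replicate 2 among them, and 1 in 3 others. The Mt2 call was lost without ischemia replicate 2 (limma adjusted p = 0.0501) or 3 (limma adjusted p = 0.057). Hypoxia targets rose in 4 of 21 cases, with 0 falls (median 0.08). Adm, the vasodilator adrenomedullin, had 23.5 to 28.4 in sham and 95, 121 and 114 after ischemia (1.28), P4ha1 rose by 0.78 and Pfkfb3 by 0.58, while Vegfa (0.31), Ldha (0.08) and Slc2a1 (−0.39) were not called. The 4 hypoxia rises became 2 without ischemia replicate 2 or 3 or sham replicate 1 or 3.

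Among secreted factors, 5 of 15 growth and neurotrophic genes rose and 0 fell (median 0.21). The EGF receptor ligand gene Hbegf had 294 to 351 in sham and 936, 1176 and 1008 after ischemia (1.60), and Bdnf, the activity-dependent neurotrophin, had 732, 713 and 555 and then 1461, 1538 and 1410 (1.11). Fgf18 rose by 0.71 and Pdgfa by 0.66, and the 5 rises became 3 without ischemia replicate 2 or 3 or sham replicate 1. Of 21 genes of the extracellular matrix and its proteolysis, 9 rose and 0 fell (median 0.34), among them the protease gene Adamts1 (2.17), the matrix genes Tnc (1.85) and Ccn2 (1.84), and Ccn1. Wnt receptors split: Fzd4 rose by 1.57, from 54.2 to 71.4 in sham to 283, 225 and 223, and Fzd3 by 1.09, while Fzd2 fell by 1.20. In this list 4 of 25 rose and 2 fell (median 0.12), where 6.08% of all genes were called higher and 4.62% lower. The 4 rises became 2 without ischemia replicate 2 or 3 or sham replicate 1 or 2. The 2 falls became 1 without ischemia replicate 2 or sham replicate 2 or 3. In the list of Notch, Hes and Id genes 4 of 19 rose and 2 fell (median 0.14), beside the same shares of all genes. These 2 falls became 0 without ischemia replicate 2 or sham replicate 1 or 3, and 1 without ischemia replicate 1 or 3. Id1 rose by 0.77, Id3 by 0.68 and Hes6 by 0.61, and the Notch effector gene Hes5 fell by 0.90; the Hes5 call was lost in 4 omissions (limma adjusted p = 0.0559 to 0.0694) and the Hes6 call without ischemia replicate 3 (limma adjusted p = 0.0669).

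Genes of RNA control moved less. Of 27 genes of mRNA decay and translation control 7 rose and 1 fell (median 0.09). Zfp36 (tristetraprolin), which marks AU-rich mRNAs for decay, had 97.4 to 116 in sham and 784, 357 and 528 after ischemia (2.03), Eif4ebp1, an inhibitor of cap-dependent translation, had 95.6 to 137 and then 219, 614 and 407 (1.46), and Btg2 rose by 1.43. These 7 rises became 3 without ischemia replicate 2 and 4 without replicate 3. Of 29 splicing factors 5 rose and 1 fell (median 0.11), led by Ptbp1 (0.96) and Tra2b (0.63). Without probe sets marked as shared Ptbp1 had 0.09 and was not called (limma adjusted p = 0.808). The 5 became 2 without ischemia replicate 2 or 3 or sham replicate 2, and 3 without sham replicate 1 or 3. The 1 fall was lost in every omission except that of wild-type ischemia replicate 3.

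Receptor, channel and synaptic genes held 1 call at 3 hours, where 10.7% of all genes were called. Of 13 ionotropic glutamate receptor genes, 9 GABA receptor genes and 22 voltage-gated channel genes, 0 were called in limma's test, with medians of −0.02, −0.19 and −0.11. Gria2, the AMPA receptor subunit that limits calcium entry, had 7126, 6248 and 5947 in sham and 6501, 5323 and 5962 after ischemia (−0.12, limma adjusted p = 0.544), with overlapping groups. Of 24 synaptic vesicle and scaffold genes 1 fell, the postsynaptic scaffold gene Shank3 (−0.41), and of 43 oxidative phosphorylation genes 1 fell, the complex II subunit gene Sdhd (−0.49). Of 30 proteasome genes 1 fell (Psma5, −0.41), of 24 chromatin modifiers 2 fell (Dnmt1, −0.48, and Smarca4, −0.33), and of 18 glycolysis genes 2 rose (Slc2a3, 0.35, and Pfkp, 0.29). Of 18 cholesterol synthesis genes 2 rose (Sc5d, 0.37, and Dhcr7, 0.32) and 1 fell (Fdps, −0.40). Small list counts, of 2 or 1, ran from 0 to 4 when 1 array was left out, and each of the 10 calls named here was lost in at least 1 omission. When probe sets of 1 gene were averaged, the calls of Fdps, Sc5d, Smarca4, Psma5, Slc2a3 and Pfkp were lost too (limma adjusted p = 0.129 to 0.651), and without shared probe sets Psma5 turned to 0.13.

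The falls were smaller and their genes more mixed. The largest among called genes was of Ogn (osteoglycin), a small leucine-rich proteoglycan of the matrix, with 1092, 806 and 1240 on sham arrays and 388, 326 and 354 on ischemia arrays (−1.46, SE 0.22, limma adjusted p = 0.00145). On the wild-type arrays Ogn had 144 to 185 in sham and 103 to 229 after ischemia, so the SUMO-KD ischemia arrays stayed above all wild-type arrays. Of 4 related proteoglycan genes (Dcn, Lum, Bgn and Fmod, looked up after this value was seen) 0 were called in SUMO-KD. Rnpc3, a protein of the minor spliceosome, had 416, 422 and 331 in sham and 116, 153 and 122 after ischemia (−1.38), and the uncharacterised gene 2610001J05Rik had 1470 to 1591 and then 575 to 609 (−1.34, SE 0.08, limma adjusted p = 2.03e-06). The centromere gene Cenpc1 (−1.29), the bZIP regulator gene Crebzf (−1.29) and the histone gene H2aw (−1.25) fell as well. So did the coregulator gene Pnrc1 (−1.10) and the imprinted ring finger gene Mkrn3 (−1.09). Without an offset Mkrn3 was at −1.42 and not called (limma adjusted p = 0.0938). Pnrc1 was tight in both groups, with 1839 to 1955 in sham and 802 to 906 after ischemia. Mettl7a1 and the glycosyltransferase gene B3galnt2 each fell by 1.04. The 5 remaining genes of the 15 largest falls were markers of cell types or Wnt receptors: Lct, Pdgfra, Fzd2, Gpr34 and Slco1a4.

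**Figure D3:**
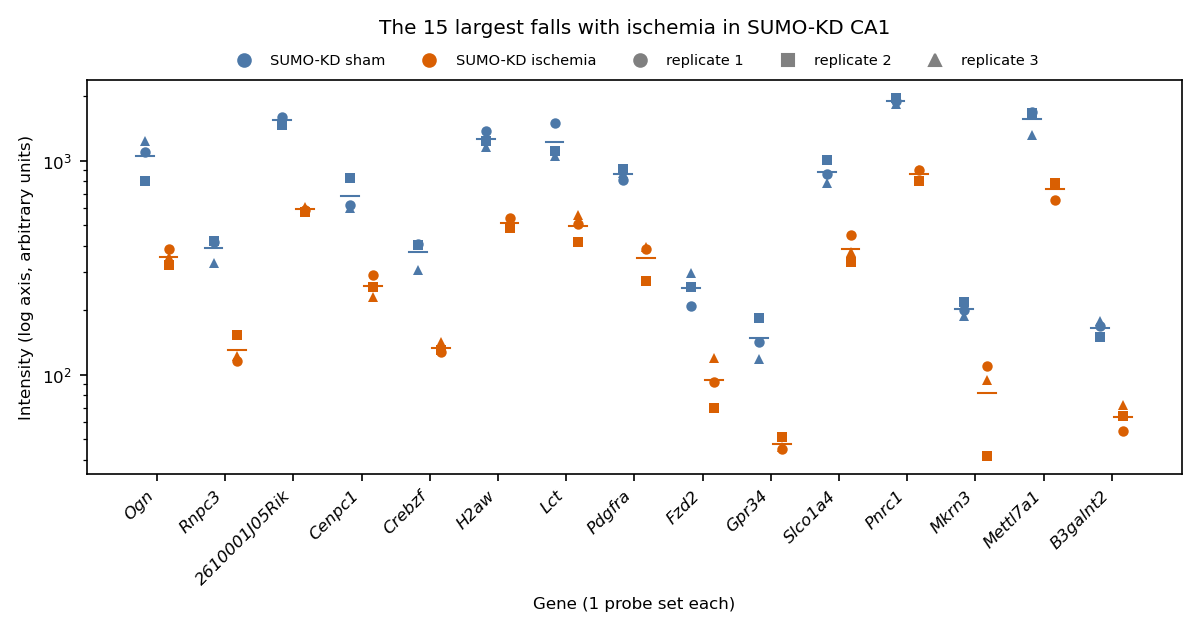
Intensity (log axis) of the 15 genes with the largest falls on each of the 6 SUMO-KD arrays, with sham in blue, ischemia in orange, a marker shape per replicate and a bar at each group mean. The genes were chosen as falls whose groups do not overlap, for example 326 to 388 against 806 to 1240 for Ogn, and the gaps are smaller than those of the largest rises.

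Cell type markers split within their own lists. Of 14 microglial markers 5 fell and 0 rose (median −0.23), and the 5 were surface and secreted markers of the resting state. Gpr34 had 141, 184 and 118 in sham and 45.1, 50.9 and 46.1 after ischemia (−1.17), the purinergic receptor gene P2ry12 had 310, 367 and 296 and then 200, 102 and 141 (−1.02), Tmem119 fell by 0.95, Olfml3 by 0.71 and Cx3cr1 by 0.54. The complement genes C1qa (−0.16), C1qb (0.21) and C1qc (−0.09), also microglial, were not called, and the summed list ran from 10447 to 11395 in sham and from 8927 to 9584 after ischemia. Of 13 endothelial markers 3 fell and 1 rose. The transporter genes Slco1a4 (−1.14) and Abcb1a (−0.95) of the blood-brain barrier and the angiopoietin receptor gene Tek (−0.96) fell, the junction gene Cdh5 (VE-cadherin) rose by 0.84 from 90.7 to 108 in sham to 184 to 217 after ischemia, and Cldn5 (0.34) and Flt1 (−0.01) were not called. Of 5 oligodendrocyte precursor markers Pdgfra fell by 1.24, from 809, 911 and 877 to 384, 273 and 395, and Cspg4 by 0.45, a call lost in 5 omissions (limma adjusted p = 0.0663 to 0.0869), while Olig1 (−0.12), Olig2 (0.07) and Sox10 (−0.50) were not called. Of 9 oligodendrocyte markers, 10 interneuron markers, 3 CA1 markers, 6 CA3 and CA2 markers and 5 ependymal and choroid plexus markers 0 were called. Of 12 astrocyte markers Sox9 rose by 0.62 and Fgfr3 fell by 0.47, the latter call being lost in 5 omissions (limma adjusted p = 0.0841 to 0.129), and Gfap (0.38) was not called.

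Dentate granule markers had the lowest median of the cell type lists, −0.51. Their 6 measured markers summed to 7497 to 9663 on sham arrays and to 5473 to 6328 on ischemia arrays. Lct fell by 1.25 and Calb1, a calcium buffer, by 0.36, a call lost in 8 omissions (limma adjusted p = 0.0505 to 0.137) and with the mean of its probe sets (−0.17, limma adjusted p = 0.332), while Dsp (−0.73, limma adjusted p = 0.0504), Tdo2 (−0.65, limma adjusted p = 0.077), Trpc6 (−0.26) and Prox1 (0.20) were not called. The dentate gyrus borders CA1, and the part of dissection in these values was not tested.

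The 3 ischemia arrays did not respond alike in every group of genes. Among called rises of the AP-1 list, ischemia replicate 2 was the lowest of its group in 8 of 10 genes and replicate 1 the highest in 7. The same array was lowest in 5 of 6 Kruppel-like factors, 7 of 12 further immediate early factors and 7 of 9 matrix genes. In the integrated stress response list the order was turned, with replicate 2 highest in 6 and replicate 1 lowest in 7 of 9 called genes, and in the heat shock list replicate 2 was highest in 9 of 15. Over all 176 rises of at least 2-fold, the lowest ischemia array was replicate 1 in 82, replicate 2 in 64 and replicate 3 in 30, and the highest was replicate 2 in 74. Over all 754 called rises replicate 2 was highest in 342 and replicate 1 lowest in 404, so the order of the stress response and heat shock lists was also the more frequent one among all rises. Without replicate 2, 9 of 13 AP-1 genes, 10 of 24 heat shock genes and 8 of 21 stress response genes rose, and over all omissions the AP-1 count was 9 to 11, the heat shock count 10 to 15 and the stress response count 8 to 13. Replicate 2 was also the ischemia array with the highest 18S controls and neutrophil genes, and its median deviation of ependymal and choroid plexus markers was 0.75, against −0.86 and 0.26 on replicates 1 and 3 and −0.63 to 0.52 on sham arrays. The part of these in the differences among replicates was not tested.

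**Figure D4:**
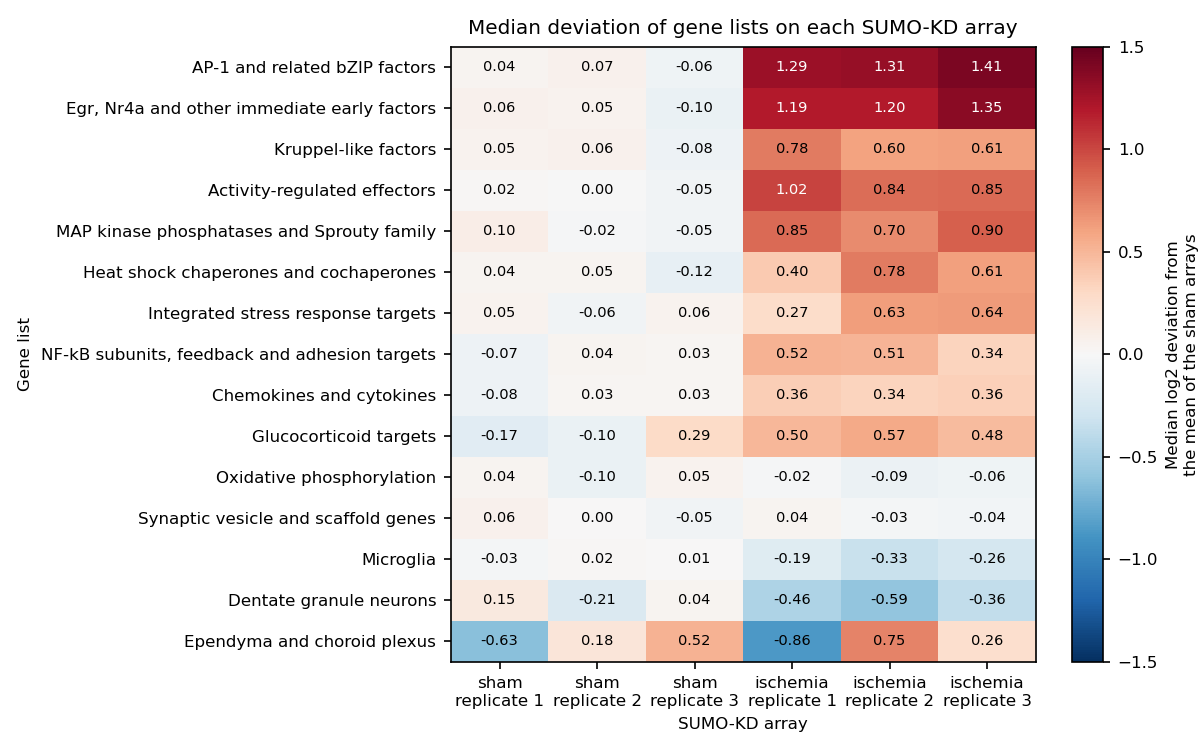
Median log2 deviation from the mean of the 3 sham arrays, over the measured genes of 15 lists, on each SUMO-KD array; red is above and blue below the sham mean. The immediate early lists lie between 1.19 and 1.41 on all 3 ischemia arrays, the stress response list is at 0.27 on replicate 1 and at 0.63 and 0.64 on the others, and the ependymal and choroid plexus list varies as much within groups as between them.

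The same comparison in wild-type mice shares no array with that in SUMO-KD, though both took the spread from all 12 arrays. The wild-type comparison called 2289 genes (18.5%), 1188 higher (9.59%) and 1101 lower (8.88%). Of the genes called, 1025 were called in both genotypes in the same direction, which is 77.2% of the SUMO-KD calls and 44.8% of the wild-type calls. Across the 12394 genes the log2 changes of the genotypes correlated at 0.779 (Pearson r, given as a description, since genes are not independent and both axes use the same probe sets). A further 299 genes were called in SUMO-KD and not in wild-type, and 277 of them had the same sign in wild-type. The difference of the responses was called for 0 of the 299 and for 2 genes in all (0.0161%), Sox11 and Neurod1, while 768 genes had an unadjusted p under 0.05 for it. A call in 1 genotype alone is therefore no measure of a difference. Among those 299 the largest rises besides S100a9 were of the gastrin and cholecystokinin receptor gene Cckbr (1.31, wild-type 0.49), Asb4 (1.09, wild-type 0.64) and the small GTPase genes Rasd1 (1.06, wild-type 0.26) and Rem2 (1.05, wild-type 0.41). The largest falls among them were of Ogn, Mkrn3, Scrn2 (−1.04), D2hgdh (−1.02) and the protocadherin gene Pcdhb17 (−1.0, wild-type −0.52). The calls of Asb4 and Scrn2, which are dim genes, were lost in 4 omissions (limma adjusted p = 0.0636 to 0.0988) and in 5 (limma adjusted p = 0.0503 to 0.112). Interferon genes had 13 of 25 calls in wild-type and 1 in SUMO-KD, with medians of 0.49 and 0.09, and the difference was called for 0 of the 25.

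Sox11 and Neurod1, transcription factors of immature and dentate granule neurons, differed between genotypes in their response. Sox11 had 667, 570 and 715 on SUMO-KD sham arrays and 414, 524 and 501 on SUMO-KD ischemia arrays (−0.42, limma adjusted p = 0.142). On wild-type arrays it had 181, 230 and 209 in sham and 845, 529 and 768 after ischemia (1.62), so the difference of responses was −2.04 (limma adjusted p = 0.0219). Neurod1 had 1645, 1368 and 1697 in SUMO-KD sham and 894, 708 and 870 after ischemia, a fall of 0.91 (limma adjusted p = 0.000578). In wild-type it had 992, 925 and 1071 and then 1325, 1356 and 1534, a rise of 0.48, and the difference was −1.39 (limma adjusted p = 0.0219). For both genes the SUMO-KD sham arrays lay above the wild-type sham arrays, and the dentate markers did so too, with sums of 7497 to 9663 against 5337 to 7251. After ischemia those sums were 5473 to 6328 in SUMO-KD and 3950 to 4331 in wild-type, and their part in the difference was not tested. Both calls of the difference were lost in 9 of the 12 omissions, with adjusted p in limma's test of 0.0521 to 0.115 for Sox11 and for Neurod1, and were kept without wild-type ischemia replicate 1 or 2 or SUMO-KD sham replicate 2. With no offset both had a limma adjusted p = 0.0951, and with the replicate number as a block Sox11 had 0.0615. The next genes by p, none of which passed, were Rrad (1.77 in SUMO-KD and 3.13 in wild-type), Dyrk3 (0.71 and 1.89), Camk2d (−0.41 and 0.60), Pim1 (1.01 and 2.49), Rgs2 (0.46 and 1.71), Nptx2 (1.73 and 3.23), Wap (0.51 and −0.45) and Etv3 (1.08 and 2.00), at limma adjusted p = 0.145 to 0.202. The difference passed for Rrad without wild-type ischemia replicate 1 (limma adjusted p = 0.0438) and for Nptx2 without wild-type ischemia replicate 2 (limma adjusted p = 0.0347). Nptx2, a pentraxin that clusters AMPA receptors, had 606, 454 and 436 in SUMO-KD sham and 1774, 1948 and 1451 after ischemia, and 5640, 3609 and 5442 in wild-type after ischemia. Camk2d, Neurod1 and Wap were the 3 genes called in both genotypes in opposite directions. The SUMO-KD calls of Camk2d and Wap were lost in 10 and 5 omissions (limma adjusted p = 0.0508 to 0.144 and 0.0513 to 0.0801). Camk2d was at −0.11 with the mean of its probe sets (limma adjusted p = 0.624). Wap was near the floor, with 13.5 to 15.8 in SUMO-KD sham and 24.2 to 44.1 after ischemia. In wild-type Wap had 27.2 to 32.7 in sham and 7.62 to 17.9 after ischemia.

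**Figure D5:**
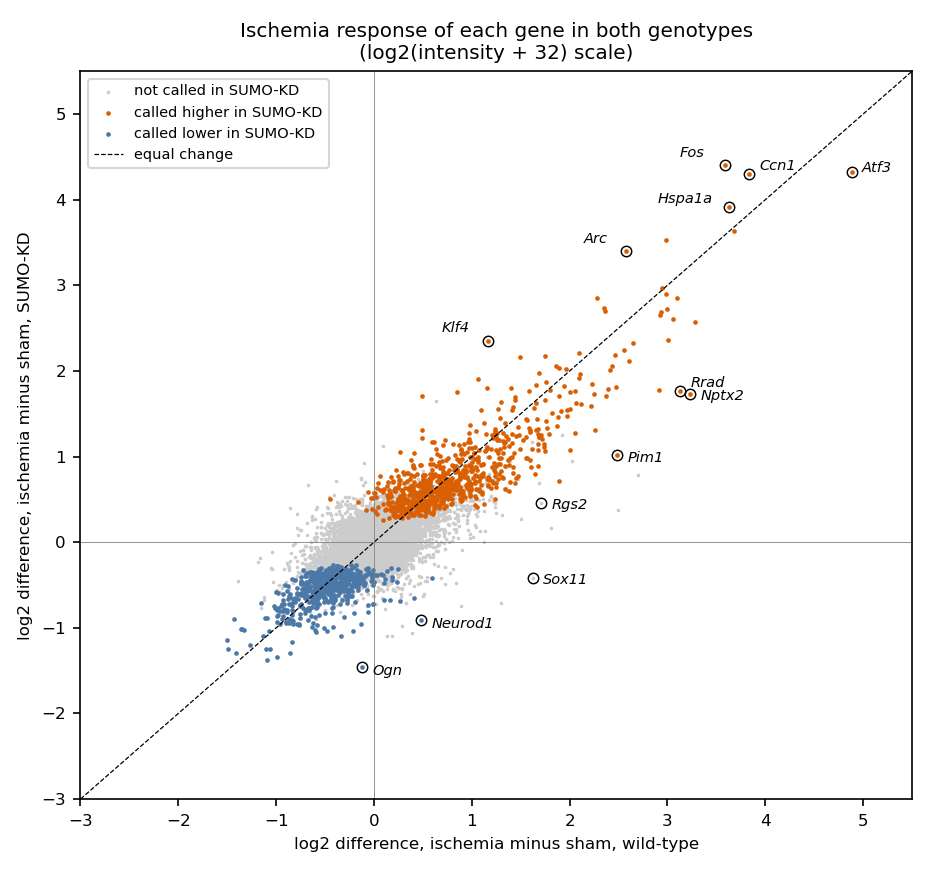
Log2 difference (ischemia minus sham, log2(intensity + 32) scale) of 12394 genes in wild-type (horizontal axis) and SUMO-KD (vertical axis), orange where called higher and blue where called lower in SUMO-KD; the dashed line marks equal change. Fos, Atf3, Ccn1 and Hspa1a lie at the upper right, and Sox11 (1.62 and −0.42) and Neurod1 (0.48 and −0.91) lie below it.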

How the data were processed

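Microarray expression of CA1 total RNA was used as deposited, with 1 intensity value per probe set and array. Per the labels' protocols, extraction used Trizol and amplification the MessageAmp Premier kit. Partek 6.6 and RMA appear in the submitters' processing notes, with no role stated. The deposited intensity values are linear, from 0.0237 to 24100, with a mean after removal of 2% at each end of 500.2 on all arrays, so they are not log2 RMA values; no source used here gives the step that made them. Of 22690 probe sets, 20393 had 1 gene symbol, 691 several and 1606 none, and 0 value columns lacked a sample. Group means of all 4 groups were fitted to log2(intensity + 32) with limma 3.58.1 in R 4.3.3. The fit used lmFit and eBayes, two-sided, with Benjamini-Hochberg over 12394 genes and no filter. The procedure was also run on simulated data with independent noise of equal spread in all groups. It recovered 84 of 100 log2 changes of 1 and 100 of 100 changes of 2, with 9 false calls. Noise shared between genes and outlying arrays were not simulated. A gene's probe set was the one with the highest mean over all arrays. Named genes are the 15 largest rises and falls with groups that do not overlap, up to 4 called members of each of 33 pathway and 12 cell type lists, Sumo genes, the 10 smallest p of the difference of responses, and the 5 largest rises and falls called in SUMO-KD alone; other names were chosen after their values were seen. Members and lists were chosen with earlier results of these data known. The alternatives were offsets of 16 and 64 and none, filters on dim genes, other uses of the probe sets, quantile normalization, median centring, a replicate block, SUMO-KD arrays alone, array weights, trend and robust eBayes, stricter thresholds, and omission of each array. Promoters are RefSeq's (GRCm38.p6). The number of arrays limits the precision.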

Additional observations from a re-analysis of the deposited data

Results flagged for a closer look

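Sox11 was picked out because the responses of the genotypes differed by the test of the difference itself, by −2.04 on the log2 scale (limma's interaction contrast, adjusted p = 0.0219). The SUMO-KD ischemia arrays had 414 to 524 against 570 to 715 in SUMO-KD sham, and all 3 wild-type ischemia arrays were above all 3 wild-type sham arrays. Neurod1 was picked out for the same reason, with a difference of −1.39 (limma adjusted p = 0.0219), a fall in SUMO-KD and a rise in wild-type. Both calls of the difference were lost in most omissions of an array, as given above, and without an offset (limma adjusted p = 0.0951 for each). No test for a single outlying value was run within groups of 3 arrays.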

How the results depend on the processing

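The counts of called genes kept within 1.5 times of their value under offsets of 16 and 64, both filters on dim genes, probe set choices, quantile normalization and trend and robust eBayes, except where given here. Falls in SUMO-KD numbered 344 with the SUMO-KD arrays alone and 862 with array weights. At an adjusted p under 0.01 limma called 391 rises and 177 falls in SUMO-KD, 1079 genes in wild-type and 0 for the difference; with a change of at least 2-fold required, 176, 22 and 308 in the first 3. The difference of responses had 0 calls without an offset, 1 without probe sets marked as shared and 1 with the replicate block. Leaving out each array gave 475 to 790 rises and 269 to 615 falls in SUMO-KD, 1546 to 2307 calls in wild-type and 0 to 5 for the difference. Centring each array on its median gave 650 rises and 645 falls and moved the median of all genes from −0.02 to −0.06. Xiap reversed to 0.0115 with the mean of its probe sets, and Psma5 reversed to 0.13 without shared probe sets; the cause was not tested. For named genes, leaving out an array kept 1588 results, weakened 197 and strengthened 3, and other settings kept 1999, weakened 170, strengthened 5 (Sumo3 and Rgs2) and reversed 2. Same-numbered sham and ischemia arrays deviated together at r = 0.195, 0.0872 and 0.0312, not all of them above 0.1, so the numbers were not taken as pairs; with the replicate number as a block there were 740 rises, 559 falls and 2294 wild-type calls. Dim probe sets limit the size of changes near the floor.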

Other observations

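Some clustered protocadherins of the beta family, cell surface proteins that give neurons an identity, fell after ischemia. This family was looked at after Pcdhb17 was seen among the falls, so its counts are a description. Of 22 measured members 8 fell and 0 rose in SUMO-KD in limma's test, where 4.62% of all genes were called lower. The other 14 were not called, and the 22 members had a median log2 difference of −0.46 and a range of −1.0 to 0.31. Of those not called, Pcdhb1, Pcdhb4, Pcdhb6, Pcdhb11, Pcdhb13, Pcdhb15, Pcdhb16 and Pcdhb18 stayed below 32 on all 12 arrays. A fall in these could hardly be seen, and the median includes them. The falls were of Pcdhb17 (−1.0), Pcdhb21 (−0.99), Pcdhb9 (−0.97), Pcdhb20 (−0.95), Pcdhb3 (−0.94), Pcdhb10 (−0.77), Pcdhb7 (−0.71) and Pcdhb22 (−0.65). Pcdhb3 had 267, 180 and 245 on the sham arrays and 146, 81.8 and 90.8 on the ischemia arrays. In wild-type 3 fell and 0 rose, where 8.88% of all genes were called lower, with a median of −0.37. The difference of responses was called for 0 of the 22. Sham means in SUMO-KD and wild-type were 438 and 47.8 for Pcdhb22, 417 and 95.6 for Pcdhb21 and 817 and 271 for Pcdhb20. They were 754 and 363 for Pcdhb17, 1043 and 596 for Pcdhb9 and 108 and 87.9 for Pcdhb10. For Pcdhb7 they were 736 and 634 and for Pcdhb3 231 and 237. Pcdhb22 lay above sham in wild-type (0.41, limma adjusted p = 0.0615) and was not called there. The part of these sham levels in the falls was not tested. The members are close paralogs, and a probe set may read more than 1 of them.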
